A study of Mus musculus with 2 samples.

Results

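The genes described here drive and brake the cell division cycle: cyclins and cyclin-dependent kinases (CDKs), CDK inhibitors, E2F transcription factors, and the enzymes of DNA replication and mitosis. They were chosen by name, as every probe set with 1 annotated gene symbol of the form Ccna, Ccnb, Ccnd or Ccne, Cdk1 to Cdk7, Cdkn1 or Cdkn2, Mcm2 to Mcm7, E2f1 to E2f8, Cdc6, Cdc20, Cdc25, Cdc45, Aurk or Plk1 to Plk4, together with Top2a, Rrm2, Mki67, Pcna, Fen1 and Tk1, and without Cdkn1c. The rule found 122 probe sets of 58 genes, among 34945 probe sets of 18193 genes with 1 symbol. RNA came from epididymal white adipose tissue, a visceral fat pad, of male C57BL/6 mice. One array was from a mouse on normal chow and the other from a mouse given a high-fat diet for 7 weeks, with the dietary challenge starting at 9 weeks of age. The labels name no other genetic change or treatment, and do not say how long the chow mouse was kept. Each diet had 1 array, so there are no replicates, no test of the diet was possible, and "higher" and "lower" compare these 2 arrays only.

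In a dividing cell, D-type cyclins with Cdk4 and Cdk6, then cyclin E with Cdk2, phosphorylate the retinoblastoma protein and free E2F factors to switch on the genes of DNA synthesis. Minichromosome maintenance (MCM) proteins are loaded at replication origins before DNA synthesis, and cyclin B with Cdk1 later drives mitosis. Mature fat cells are mostly out of the cycle, and dividing cells in a fat pad are mainly precursor, immune and vascular cells. Several cell cycle regulators, among them D-type cyclins and Cdkn2c, are also known for roles in the differentiation or upkeep of fat cells. In whole tissue, fewer cells of a type and less RNA per cell cannot be told apart.

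Cell cycle genes had no common direction between the diets, and the 2 members past 2-fold each rested on a single probe set. A probe set was counted as measured where it reached a floor for weak signal, the 40th percentile of its array, on at least 1 array. That floor was an intensity of 28.6 for chow and 27.9 for the high-fat diet, and lower values were raised to it before log2 was taken. Of the 58 genes 52 were measured, 47 with a value over the floor on each array, 3 on chow only and 2 on the high-fat diet only. A gene above the floor on 1 array has a bound only, written as at least N-fold. Each gene is given by its brightest measured probe set, the one with the highest mean log2 over both arrays. A high value on 1 array can thus decide which probe set is used. Pairs of intensities name the chow array first. On the log2 scale, high-fat diet minus chow, 23 of the 52 were higher and 29 lower, with a median difference of -0.07, against 46.8% higher and a median of -0.02 among all 14066 measured genes. Of the 52, 71.2% lay within 0.5 log2 units of equality, against 82.8% of all measured genes.

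E2f5 was 2-fold or more higher, which 1.17% of all measured genes were, and Fen1 was 2-fold or more lower, as were 1.35% of all measured genes. The 2 together are 3.85% of the 52 members, against 2.52% of all measured genes. With centring on reference genes these counts over all genes moved from 164 higher and 190 lower to 124 and 256, and E2f5 and Fen1 stayed past 2-fold. The next members, just under 2-fold, were Cdkn1a and E2f7, at 1.73-fold and 1.72-fold higher, and Cdkn2aip, at 1.68-fold lower. At 1.5-fold or more, 8 members were higher and 5 lower, or 25% of the 52, against 5.82% and 6.40% of all measured genes in each direction and 12.2% in both together. Among genes with a mean intensity under 100 the share was 29% of 31 members and 17.7% of all 6592 genes, and at 100 or more it was 19% of 21 members and 7.36% of 7474 genes. With centring on reference genes the balance of members turned, to 4 higher and 7 lower. The count also moved with the floor. At the 60th percentile, 3 of 34 members were higher and 2 lower, against 7.61% of all genes in both directions together. Without a floor and with 16 added to each intensity, 4 of 58 members were higher and 1 lower, against 12.1% of all genes. In that setting the share of members lay under that of all genes. Cdk1 and Ccnb2 among the 8 passed the floor only through the high-fat diet array, and Mcm6 among the 5 only through chow. With only probe sets over the floor on each array, 6 of 48 members were higher and 4 lower, against 10.2% of all genes in both directions together.

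**Figure D1:**
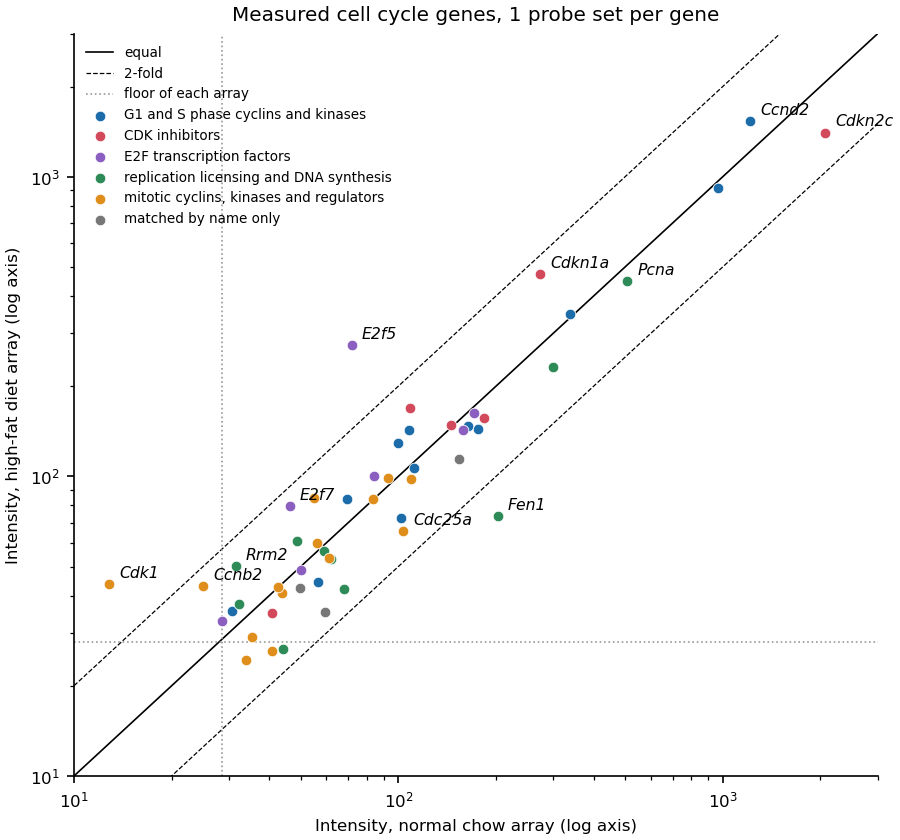
Intensity of each of the 52 measured genes on the chow array (x axis, log scale) and the high-fat diet array (y axis, log scale), 1 brightest probe set per gene, coloured by role. The solid line marks equal intensity, dashed lines 2-fold and dotted lines the floor of each array. E2f5 lies above the upper dashed line and Fen1 below the lower one, while Cdk1, at 12.8 on chow, has only a bound.

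Probe sets of the same gene gave a view of measurement error that single values do not. Of 26 members with 2 or more measured probe sets, 15 had all of them on the same side of 0 and 11 did not, or 57.7% in one direction, against 46.3% of 6077 such genes over the array. Around the mean difference of their gene, the differences of single probe sets spread with an SD of 0.41 (log2, pooled) in 18 members that had at least 2 probe sets over the floor on each array, and of 0.32 in all 5196 such genes. This SD leaves out the spread between animals. Of the 52 brightest probe sets, 8 carried the suffix _x_at and 4 the suffix _s_at, which Affymetrix gives to probe sets that can match more than 1 transcript.

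**Figure D2:**
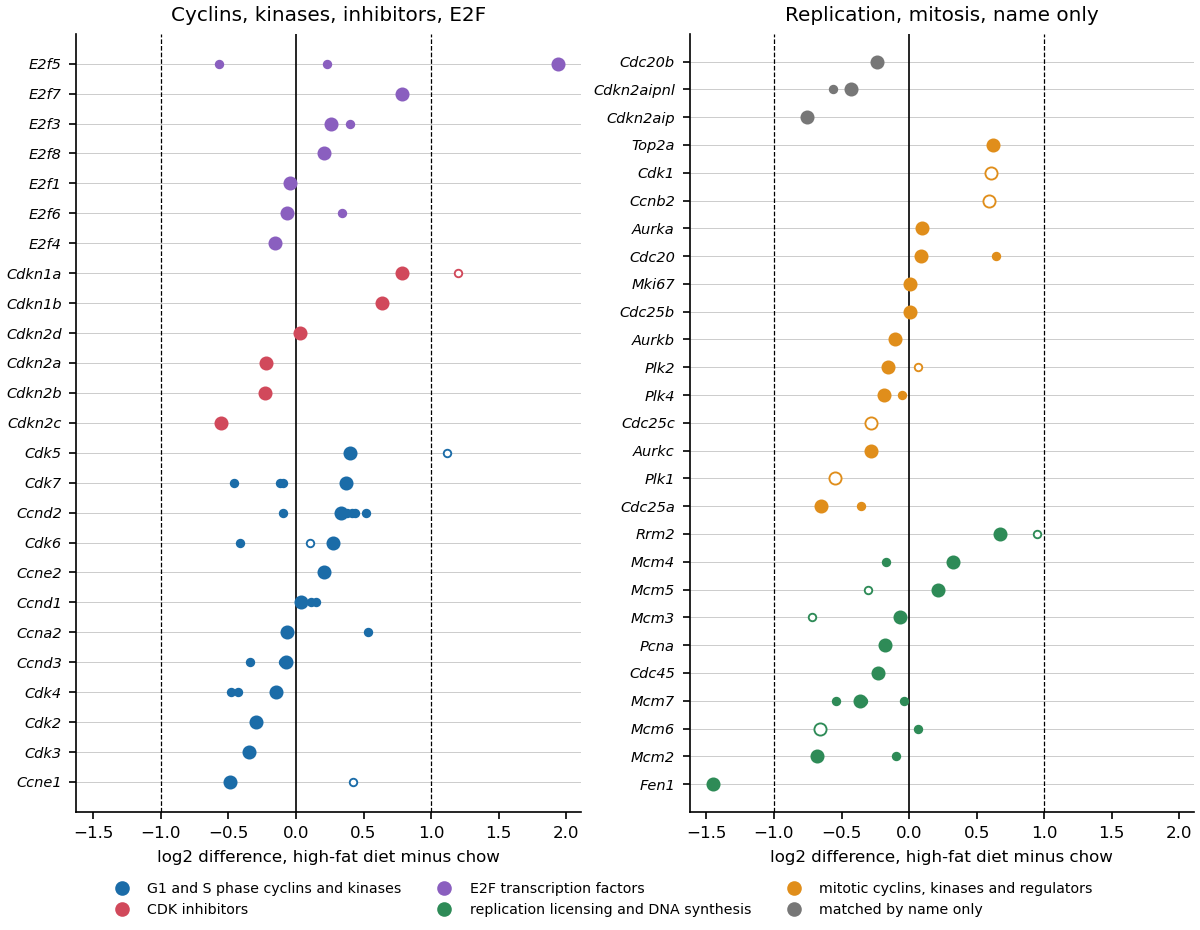
log2 difference, high-fat diet minus chow (x axis), of every measured probe set of the 52 genes (y axis), coloured by role. Large points are the brightest probe set of each gene, small points its others, open points those above the floor on 1 array only, and dashed lines mark 2-fold. The 3 probe sets of E2f5 spread from -0.57 to 1.94, and those of Ccnd1 lie between 0.04 and 0.15.

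D-type cyclins, which couple growth signals to entry into the cycle, differed by less than 1.5-fold between the diets in every measured probe set. Ccnd2 differed most, by 0.34 in its brightest probe set, past the upper quartile of all measured genes, 0.20. Ccnd2 had 7 measured probe sets, and its brightest had an intensity of 1211.5 on chow and 1530.3 after high-fat feeding, 1.26-fold higher. A further probe set with an intensity of 1091.2 on chow and 1559.3 after high-fat feeding differed by 0.51. In all, 6 of the 7 were higher, and the one that was lower, by -0.09, was also the weakest, at 36.7 and 34.4. Ccnd1 had intensities of 337.6 and 347, and its 3 probe sets were all higher, by 0.04 to 0.15, although the brightest was at -0.03 with centring on reference genes. Ccnd3 had 963.3 on chow and 913.8 after high-fat feeding, and all 3 of its probe sets were lower, by -0.08 to -0.34. The 3 D-type cyclins thus lay within 0.5 log2 units of equality in their brightest probe sets.

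Their partner kinases did not share a direction. Cdk4 had an intensity of 163.4 on chow and 147.7 after high-fat feeding, and its 3 probe sets were all lower, by -0.15 to -0.48. Cdk6 went from 69.4 to 84.1 in its brightest probe set, but 1 of its 3 probe sets was lower, by -0.41. Cdk2, the partner of cyclins E and A, was lower, with 176.2 on chow and 143.6 after high-fat feeding. Its cyclin Ccne1 had 101.9 on chow and 72.5 after high-fat feeding in the brighter probe set, a difference of -0.49, while the other probe set was above the floor only after high-fat feeding, at 38.4, and differed by at least 0.43. Ccne2 was weak, at 30.8 and 35.5. Ccna2, the cyclin of DNA synthesis and early mitosis, had 111.8 and 106.9 in one probe set and 58.4 and 84.4 in the other, differences of -0.06 and 0.53.

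Among the less central kinases, Cdk5, best known for its role in neurons and for phosphorylating PPARγ in fat, had 107.9 on chow and 142.7 after high-fat feeding, 1.32-fold higher. A second Cdk5 probe set, above the floor only after high-fat feeding, had 22.6 and 62.2, at least 2.17-fold higher, and the third was below the floor on both arrays. Cdk7, which activates other CDKs and is part of the transcription factor TFIIH, had 99.9 and 129.4 in its brightest probe set but was lower in its other 3 measured probe sets, by -0.09 to -0.46. Cdk3 was lower, at 56.5 and 44.5. Over the 12 measured cyclins and kinases of these phases, 6 were higher and 6 lower, none reached 1.5-fold, and the median difference was -0.01, which turned positive in 5 of 10 alternatives.

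**Figure D3:**
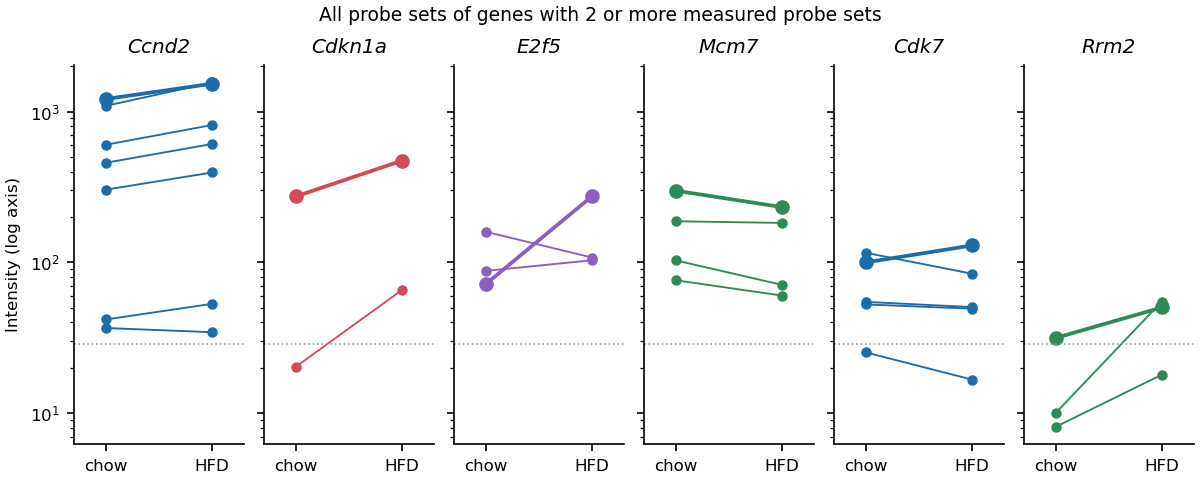
Intensity (y axis, log scale) of every probe set on the chow array and the high-fat diet (HFD) array for 6 genes with 2 or more measured probe sets. Lines join the same probe set, thick lines mark the brightest and the dotted line is the floor on chow. The probe sets of Cdkn1a and of Mcm7 slope the same way within each gene, whereas those of E2f5 and Cdk7 cross.

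Of 6 CDK inhibitors 3 were higher and 3 lower. The 2 Cip/Kip members kept by the rule, Cdkn1a and Cdkn1b, bind cyclin-CDK complexes and were both higher after high-fat feeding. Of the 4 INK4 members, which bind Cdk4 and Cdk6, 3 were lower and Cdkn2d was close to equal. Cdkn1a, the gene of p21 and a target of the p53 tumour suppressor, had an intensity of 273.8 on chow and 472.9 after high-fat feeding, a difference of 0.79. Its other probe set was above the floor only after high-fat feeding, with 20.3 and 65.7, at least 2.30-fold higher. Cdkn1b, the gene of p27, had 108.8 on chow and 168.8 after high-fat feeding, 1.55-fold higher in its only measured probe set, with the other below the floor at 14.6 and 15.4. Both differences kept their direction in 10 of 10 alternatives, at 0.72 to 0.99 for Cdkn1a and 0.56 to 0.67 for Cdkn1b. With 1 measured probe set, Cdkn1b could not move with the choice of probe set.

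Of the INK4 genes, Cdkn2c, the gene of p18, differed most. Its single probe set had an intensity of 2060.9 on chow and 1403.8 after high-fat feeding, 1.47-fold lower, and this difference ran from -0.69 to -0.55 over the alternatives. Cdkn2b, which encodes p15, had 183.5 and 156.6, a difference of -0.23. Cdkn2a, the senescence-linked gene of p16 and p19ARF, was weak, at 40.7 and 34.9, a difference of -0.22. Both lie within the quartiles of all measured genes, -0.24 to 0.20. Cdkn2d, the gene of p19, was close to equal at 145.2 and 148.6. The 6 inhibitors together had a median difference of -0.09, which turned positive, to 0.03, with the floor at the 60th percentile.

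Of 8 E2F genes 7 were measured, 4 higher and 3 lower, with a median difference of 0.21. That median was the value of E2f8, which lay at the floor on chow. It fell to 0.08 with the floor at the 20th percentile and to 0.05 without a floor, where 4 were higher and 4 lower each time. E2f5, a repressor E2F that works with the retinoblastoma relatives, had the largest difference of any member and the least agreement. Its brightest probe set (1447625_at) had an intensity of 71.7 on chow and 274.6 after high-fat feeding, 3.83-fold higher. A second (1460207_s_at), the brightest of the 3 on chow, had 159.6 on chow and 107.6 after high-fat feeding, a difference of -0.57. The third (1417444_at) had 87.8 and 103.2, a difference of 0.23. The first thus represents E2f5 only through its value on the high-fat diet array. The direction of E2f5 thus depends on the probe set, and the mean of the 3 was 0.53. E2f7, an atypical repressor that is itself switched on by E2F factors, had 46.2 and 79.6 in its only probe set, 1.72-fold higher, or 0.40 with the floor at the 60th percentile, and its relative E2f8 had 28.6 and 33. The activators were near equal or slightly higher. E2f1 had 50 on chow and 48.6 after high-fat feeding, and E2f3 had 84 and 100.3, with both of its probe sets higher, by 0.26 and 0.40. E2f4, a repressor, was slightly lower, at 158.6 and 142.3. E2f6, a repressor that works apart from the retinoblastoma family, had 170.5 and 162.6 in its brighter probe set, a difference of -0.07, and 0.34 in the other. E2f2 was below the floor in both of its probe sets.

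The promoters of these genes carry known sequence elements, and they are printed for every member at 1.5-fold or more with an E2F or a CHR word, described next, so that members on either side can be compared. E2F factors bind sites such as TTTCCCGC, TTTCGCGC, TTTGCCGC and TTTGGCGC. The cell cycle genes homology region (CHR), TTTGAA, is bound by the MuvB complexes that repress and then activate mitotic genes, often next to CCAAT boxes bound by NF-Y. All were searched on both strands in RefSeq promoters (GRCm38.p6) of 250 bases before to 50 bases after the start site, and no word of one motif contains a word of another. Of the 58 genes 47 had 55 promoters there. The lines below give the 250 bases before the start, 5′ to 3′ along the gene, with matches in capitals.
Cdk1, chr10:69352913-69353162, minus strand: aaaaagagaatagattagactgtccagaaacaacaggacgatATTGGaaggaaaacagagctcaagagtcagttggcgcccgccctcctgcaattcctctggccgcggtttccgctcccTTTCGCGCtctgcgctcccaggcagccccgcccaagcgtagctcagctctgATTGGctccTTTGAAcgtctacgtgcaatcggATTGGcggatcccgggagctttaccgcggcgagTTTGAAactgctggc
Ccnb2, chr9:70421555-70421804, minus strand: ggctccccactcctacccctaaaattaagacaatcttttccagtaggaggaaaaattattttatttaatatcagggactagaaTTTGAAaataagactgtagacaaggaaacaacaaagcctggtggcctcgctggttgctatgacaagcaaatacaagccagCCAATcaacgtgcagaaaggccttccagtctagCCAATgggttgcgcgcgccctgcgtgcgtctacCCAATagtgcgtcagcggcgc
Top2a, chr11:99024190-99024439, minus strand: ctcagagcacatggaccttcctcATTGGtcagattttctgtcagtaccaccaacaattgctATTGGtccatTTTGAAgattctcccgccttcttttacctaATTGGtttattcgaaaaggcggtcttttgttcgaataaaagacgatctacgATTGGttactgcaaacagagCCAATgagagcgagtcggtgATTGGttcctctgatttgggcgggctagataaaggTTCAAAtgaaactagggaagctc
E2f7, chr10:110745189-110745438, plus strand: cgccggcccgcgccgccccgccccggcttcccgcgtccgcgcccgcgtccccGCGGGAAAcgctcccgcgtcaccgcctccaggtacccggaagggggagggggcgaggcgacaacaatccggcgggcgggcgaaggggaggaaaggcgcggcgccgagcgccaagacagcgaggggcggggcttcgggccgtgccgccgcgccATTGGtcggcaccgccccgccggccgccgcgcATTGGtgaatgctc
Mcm6, chr1:128359706-128359955, minus strand: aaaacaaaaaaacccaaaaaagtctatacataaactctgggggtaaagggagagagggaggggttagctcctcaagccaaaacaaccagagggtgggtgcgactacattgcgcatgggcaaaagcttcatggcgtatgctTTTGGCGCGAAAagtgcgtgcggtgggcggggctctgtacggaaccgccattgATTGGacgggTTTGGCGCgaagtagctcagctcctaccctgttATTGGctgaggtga
Mcm2, chr6:88898781-88899030, minus strand: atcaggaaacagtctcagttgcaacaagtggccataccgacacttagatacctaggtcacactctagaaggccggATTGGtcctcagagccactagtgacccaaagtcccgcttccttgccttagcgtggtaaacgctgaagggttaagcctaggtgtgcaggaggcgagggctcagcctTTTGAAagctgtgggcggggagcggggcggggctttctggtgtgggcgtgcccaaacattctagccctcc
Cdc25a, chr9:109875329-109875578, plus strand: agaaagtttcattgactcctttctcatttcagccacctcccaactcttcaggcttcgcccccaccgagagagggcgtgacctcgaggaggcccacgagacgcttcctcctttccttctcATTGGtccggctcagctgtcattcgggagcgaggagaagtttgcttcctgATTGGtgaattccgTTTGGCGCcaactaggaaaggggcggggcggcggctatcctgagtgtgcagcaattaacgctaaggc
Fen1, chr19:10204394-10204643, minus strand: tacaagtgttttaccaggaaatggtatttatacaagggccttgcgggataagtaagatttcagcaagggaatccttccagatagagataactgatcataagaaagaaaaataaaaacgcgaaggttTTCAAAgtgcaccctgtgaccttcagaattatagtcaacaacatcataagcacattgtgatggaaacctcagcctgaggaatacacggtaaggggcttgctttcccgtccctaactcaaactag

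Cdk1 held an E2F word at -131, CHR words at -71 and -15, and CCAAT words on the opposite strand at -208, -80 and -48, counted from the start site. Ccnb2 held CCAAT at -87, -54 and -21, and Top2a held CHR words at -179 and -23. Mcm6 held E2F words starting at -110, -106 and -47, the first 2 overlapping on opposite strands. Cdc25a held 1 at -67 and E2f7 held 1 at -198. Mcm2 held a CHR word at -70 and CCAAT at -175. Over the whole set, an E2F word was in 21.8% of the 55 member promoters, against 3.46% of 14352 promoters of measured genes and 2.26% of all 32851. CHR words were in 25.5%, against 12.4% and 17.9%, and CCAAT was in 58.2%, against 37.1% and 37.4%. By role, 38.5% of 13 promoters of replication genes held an E2F word and 50% of 14 promoters of mitotic genes held a CHR word. The members shown with each element lay on both sides of 0. Of the ones shown with both CHR and CCAAT, Cdk1, Ccnb2 and Top2a were higher after high-fat feeding and Mcm2 was lower. Under 1.5-fold and not shown, Aurka, Cdc20, E2f3, E2f8 and Mki67 also held both and were higher, and Cdc45 and Plk1 were lower. Of these Mki67 differed by only 0.01, and Aurka and Mki67 each changed sign in 1 alternative. Of the ones shown with an E2F word, Cdk1 and E2f7 were higher, and Mcm6 and Cdc25a were lower. Those under 1.5-fold with an E2F word were E2f3 and Mcm5, higher, and Cdk2, Cdkn2a, Mcm3 and Mcm7, lower. Mcm5 and Mcm6 each changed sign in 2 alternatives. Fen1, the member furthest lower, held a CHR word at -124 in 1 of its 2 promoters, which is the one shown, and no E2F word.

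**Figure D4:**
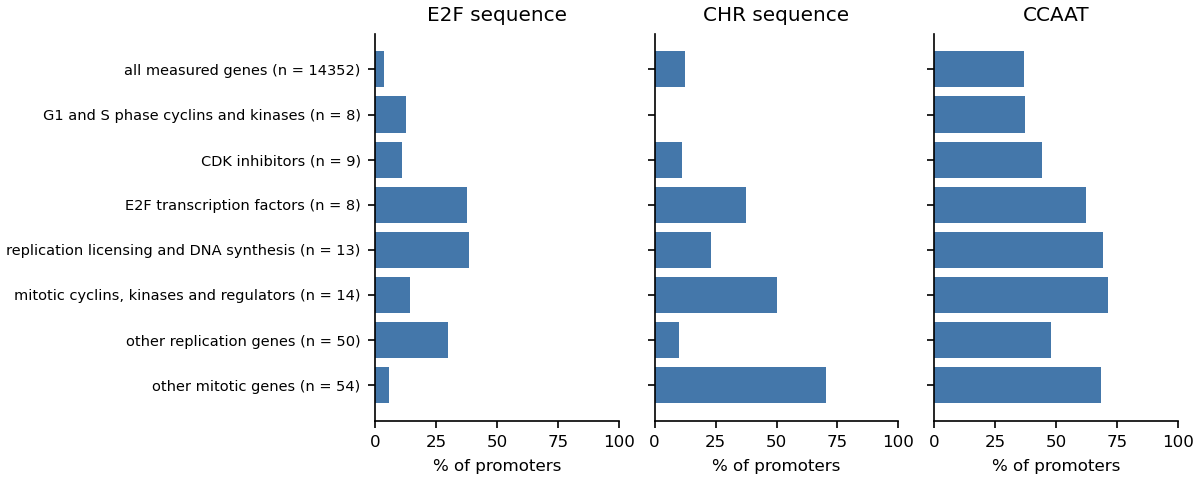
Percent of promoters (x axis) that hold an E2F word, a CHR word or CCAAT on either strand, for promoters of all measured genes and of each group (y axis, n = promoters). E2F words were in 38.5% of promoters of the replication group, and CHR words in 50% of the mitotic group and 70.4% of promoters of other mitotic genes, against 3.46% and 12.4% over all measured genes.

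Of 10 measured genes of replication licensing and DNA synthesis, 7 were lower on the high-fat diet and 3 higher. Among all measured genes 46.8% were higher. The median difference of the 10 was -0.20, beside -0.02 over all measured genes, and stayed negative in 10 of 10 alternatives, from -0.28 to -0.08. With only probe sets over the floor on each array, 4 were higher and 6 lower, with a median of -0.12. Fen1, the flap endonuclease that trims Okazaki fragments, had an intensity of 202.3 on chow and 73.8 after high-fat feeding, 2.74-fold lower. That value came from an _x_at probe set (1436454_x_at), and the other probe set of Fen1 (1421731_a_at) stayed under the floor, at 23.3 on chow and 23 after high-fat feeding, so that no second probe set measured the gene. Pcna, the sliding clamp of the replication fork, had 505.8 and 447.5, a difference of -0.18.

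The MCM genes, whose products form the 6-part replicative helicase, gave differences of both signs, most of them small or from weak signals. Mcm7 had 4 measured probe sets, all lower, by -0.04 to -0.54, and the brightest had an intensity of 298.8 on chow and 232.5 after high-fat feeding. Mcm2 had 67.8 and 42.2 in one probe set, 1.61-fold lower, but 36.7 and 34.4 in the other, a difference of -0.09. Mcm6 had 44 on chow and dropped under the floor with high-fat feeding, at 26.5, at least 1.58-fold lower, while its other probe set, at 32.6 and 34.1, differed by 0.06. Mcm3 had 59 and 56.2, and its second measured probe set, over the floor on the chow array alone, was lower by a bound of -0.72. Mcm4 had 48.6 and 60.8 in the brighter probe set and 51.5 and 45.7 in the other, and the probe sets of Mcm5 also differed in direction, at 0.21 and at least -0.30. Of the 6 helicase genes, Mcm2, Mcm3 and Mcm7 were lower in every measured probe set, and Mcm4, Mcm5 and Mcm6 had 1 probe set on each side.

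Rrm2, the regulated subunit of ribonucleotide reductase, which makes deoxynucleotides, went the other way. It had 31.5 on chow and 50.2 after high-fat feeding, 1.59-fold higher, and its second measured probe set had 10 and 55, at least 1.92-fold higher. The third was below the floor on both arrays, although also higher, at 8.1 and 18. Cdc45, a partner of the MCM helicase, was lower in both of its probe sets, by -0.23 each, with 61.9 and 52.8 in the brighter. Cdc6, which loads the MCM proteins, was below the floor at 18.1 and 16.6, as was Tk1, the thymidine kinase of DNA synthesis, at 25.4 and 15.7.

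Genes of mitosis were weak on both arrays and split evenly. Of 14 measured members 7 were higher and 7 lower, with a median difference of -0.05, which turned positive in 3 of 10 alternatives, all with a changed floor or choice of probe set. The 3 members at 1.5-fold or more higher were Cdk1, Ccnb2 and Top2a, whose promoters are shown above. Cdk1, the kinase of mitotic entry, was below the floor on chow at 12.8 and had 43.6 on the high-fat diet, at least 1.52-fold higher. Its cyclin Ccnb2 had 25 and 43, at least 1.5-fold higher. Top2a, the topoisomerase that untangles chromosomes, had 54.8 and 84.4, a difference of 0.62, with its other 2 probe sets below the floor. All 3 fell under 1.5-fold with centring on reference genes, at 0.53 for Cdk1, 0.51 for Ccnb2 and 0.55 for Top2a, where the mitotic members had 0 higher and 2 lower by 1.5-fold. With the floor at the 20th percentile the Cdk1 difference was 1.77, and without a floor it was 1.05.

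Other mitotic members did not follow these 3 genes. Mki67, the gene of the proliferation antigen Ki-67, had 42.6 on chow and 42.8 after high-fat feeding. Aurka, a spindle kinase, had 56 and 59.9, Aurkb, the kinase of the chromosomal passenger complex, had 43.9 and 40.9, and Aurkc, its germ line relative, had 35.4 and 29.1. Cdc20, an activator of the anaphase-promoting complex, had 92.8 and 98.5, and its other measured probe set was higher by 0.65. Plk1, the polo kinase of mitosis, was above the floor only on chow, with 40.7 and 26.2, at least 1.46-fold lower. Plk4, which controls centriole duplication, was lower in both measured probe sets, by -0.06 and -0.19, and Plk2, a stress-induced polo kinase, had 109.3 and 97.9 in its brighter probe set, with 0.07 in the other. Of the phosphatases that activate CDKs, Cdc25a was lower in both measured probe sets, with 103.2 and 65.6 in the brighter, 1.57-fold lower. Cdc25b was equal within 0.01, at 83.6 and 83.9, and Cdc25c was above the floor only on chow, at 33.9, where the high-fat diet array had 24.4.

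The members below the floor in every probe set were Ccna1, a cyclin of the male germ line, Ccnb3, Cdc6, E2f2, Plk3 and Tk1. The rule also took in 3 measured genes by their names alone. Cdkn2aip, which encodes a binding partner of p19ARF, had 59.3 on chow and 35.2 after high-fat feeding, 1.68-fold lower. Its relative Cdkn2aipnl was lower in both probe sets, by -0.43 and -0.56, and Cdc20b, a relative of Cdc20, had 49.9 and 42.4. Without these 3 genes 23 of 49 members were higher and the median was -0.06.

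**Figure D5:**
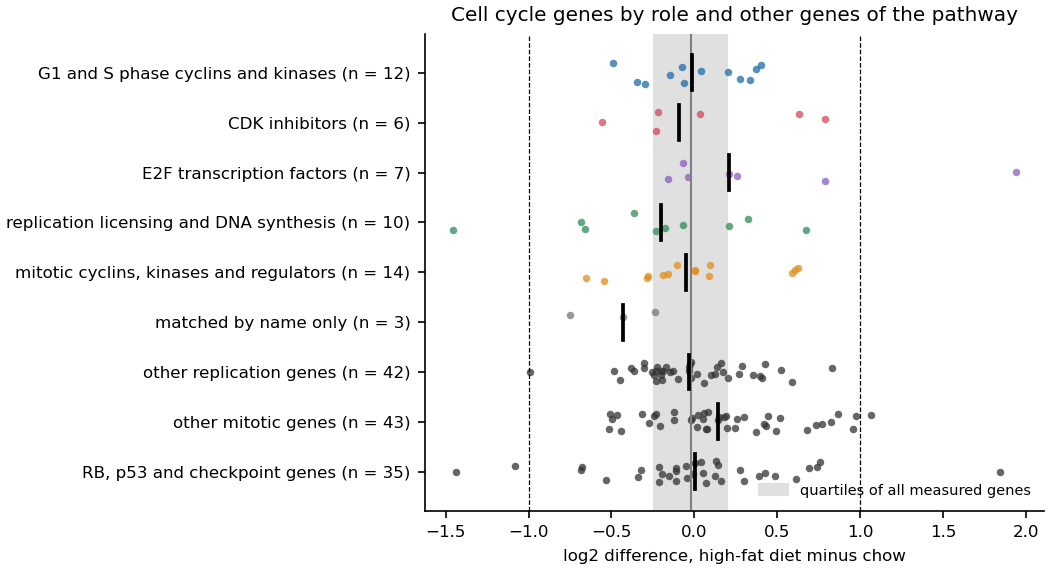
log2 difference, high-fat diet minus chow (x axis), of each measured gene (points) by role and for 3 lists of other pathway genes (y axis), with the median as a black bar and the quartiles of all measured genes, -0.24 to 0.20, in grey. Medians ran from -0.43 for the genes matched by name to 0.21 for the E2F genes, and that of other mitotic genes was 0.14.

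Other genes of the same pathway were compared as 3 lists. Of the mitotic genes outside the members, 29 of 43 measured were higher after high-fat feeding and 14 lower. By 1.5-fold or more 8 of the 43 were higher and 0 lower, where 5.82% and 6.40% of all measured genes were. The 8 were weak, and among all measured genes with a mean intensity under 100 the shares were 8.18% and 9.54%. Birc5, Cenpa and Kif22 among the 8 passed the floor only through the high-fat diet array. With genes over the floor on each array, 23 were higher and 13 lower, 5 were higher by 1.5-fold and the median was 0.07. With the floor at the 60th percentile, 14 were higher and 7 lower, 0 of them by 1.5-fold. The median over all 43 was 0.14, against -0.02 over all measured genes, and was positive in 10 of 10 alternatives, from 0.06 to 0.18. With centring on reference genes 24 were higher and 19 lower. Signals were low in this list too, with 6 genes above the floor only after high-fat feeding, 1 only on chow and 13 below it on both. Kif22, a chromosome-bound motor, had 28.2 and 59.8, at least 2.09-fold higher and the only one of the list past 2-fold. Cks2, a small subunit of CDK complexes, had 41 and 79.6, a difference of 0.96, and was also higher in its other probe set, by 0.85. Cenpa, the centromere histone, had 16.1 and 56.3, at least 1.97-fold higher, and Ube2c, which feeds the anaphase-promoting complex, had 31.7 and 57.8. By contrast Cks1b, a relative of Cks2, had 481.5 and 336.9, a difference of -0.52. Foxm1, the factor that activates mitotic genes with MuvB, had 164.9 and 224.5 in its brighter probe set, a difference of 0.45. The other Foxm1 probe set was lower, by -0.53. Mybl2, also in this list, was lower in its only measured probe set, at 44.7 and 32.3, a difference of -0.47.

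Other replication genes were near the background, with 17 of 42 higher, 25 lower and a median of -0.03, which reached 0.0013 under quantile normalization. None was past 2-fold. Pold2, a subunit of DNA polymerase delta, came closest, with 122.8 on chow and 61.9 after high-fat feeding, 1.98-fold lower. On the other side Gins3, a subunit of the GINS complex of the replicative helicase, had 45.9 and 81.6, although its other probe set differed by only -0.01.

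In the list of retinoblastoma, p53 and checkpoint genes 18 of 35 were higher and 17 lower, with a median of 0.0026. The 3 past 2-fold each had probe sets that did not match in direction or in size. Lin52, a MuvB subunit, was above the floor only after high-fat feeding, with 14.9 and 102.5, at least 3.58-fold higher, but was lower by -0.36 in its other probe set. Mycn, a MYC family gene, was above the floor only on chow, with 75.6 and 18.4, at least 2.71-fold lower, with up to 0.75 in its other probe sets. Pkmyt1, which inhibits Cdk1, had 148 and 69.8, 2.12-fold lower, and -0.20 in its other probe set. Beside Cdkn1a, known p53 targets gave values of both signs. The ones named here were picked after their values were seen, so their balance says nothing about p53 targets as a set. Ccng1 had 754.5 and 1262.4, 1.67-fold higher, with 3 probe sets of one direction, and Gadd45a had 23.1 and 48.3, at least 1.69-fold higher. Sesn2, Btg2 and Sesn1 were higher by 0.49, 0.13 and 0.12 in their brightest probe sets, though Btg2 differed by -0.35 in its other. Mdm2, the p53 ubiquitin ligase and itself a target, had 234.7 and 146.8, 1.60-fold lower, though 1 of its 3 probe sets differed by 0.14. Rb1, the retinoblastoma gene, had 381 and 468.9, a difference of 0.30.

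Markers of cell types were set beside these differences, since dividing cells in a fat pad can be of several types. Adipocyte markers were strong on both arrays, as the tissue label has it, with Adipoq at 8372.1 and 8718.4, and 10 of 10 were measured. Their summed intensity was 48913.3 on chow and 50945.4 after high-fat feeding, with 6 higher and 4 lower. The 13 macrophage markers summed to 9462 and 9465.1, with 6 higher and 7 lower, and the 8 endothelial markers to 2036.7 and 2057.4. Single macrophage markers differed more than their sum, from Itgax, 1.66-fold higher, to Cd5l, over the floor only on chow and at least 2.27-fold lower. Markers of progenitors and fibroblasts were higher in 8 of 10 cases, with sums of 15215.3 and 16689.3. Among the 8, Dpp4 and Cd34 differed by only 0.04 each. The other markers of this list were lower: Pdgfra, at 289.3 and 182.7, and Dcn, at 6312 and 5096.7. Of the 11 T and B cell markers, Cd2, Cd3d, Cd4 and Cd8b1 were below the floor, and the other 7 summed to 3193.6 and 4560.5, most of it from the brightest probe set of Ighm, at 2765.2 and 4110.8, while the 6 probe sets of Ighm ran from -1.22 to 1.11 in their differences. Mesothelial markers were lower in 6 of 8 cases, with sums of 1655.7 and 1198. Of 10 testis and epididymis markers, Dazl, Ddx4, Prm1 and Tnp1 were below the floor, and the other 6 summed to 236.9 and 365.2. Adam7, Odf1 and Prm2 among the 6 passed the floor only through the high-fat diet array, so this sum favours that array. Of the 3 over the floor on each array, Sycp3 was higher, at 60.8 and 132.5, and Defb42 and Rnase10 were lower. The 3 red blood cell markers summed to 278.6 and 271.8. The part of any of these cell types in the cell cycle values was not tested.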

How the data were processed

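One Affymetrix array per diet was analysed, with biotin-labelled cRNA from 10 µg of total RNA per the labels' protocols. The deposited table holds linear intensities that the authors summarised per probe set, for 45037 probe sets. How they were summarised and scaled is not stated in the labels or the table. Means trimmed by 2% at each end were 99.6 on both arrays, and median log2 intensities differed by -0.03, under the 0.1 limit for centring, so values were used as deposited. A common scaling would remove a difference in total RNA per cell.

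Probe sets were named from a 2016 platform annotation: 34945 had 1 symbol, 932 several and 9160 none here. Of the 34945, 34741 matched RefSeq by gene ID, which changed 0 symbols. Promoters on chromosome 18 were not used. The report explains the floor and the choice of probe set. Measured members are given by role, with full values for those at 1.5-fold or more, those whose probe sets differ in direction and the brightest of each role. Pathway genes are named at 2-fold or more, and further ones were picked after their values were seen. Members and lists were chosen with earlier results of these data known. The number of arrays limits the precision, and no p-value was computed. Scripts (Python 3.11.15, NumPy 2.4.6, pandas 2.3.3, SciPy 1.17.1, statsmodels 0.14.6) were tested on simulated data.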

Additional observations from a re-analysis of the deposited data

How the results depend on the processing

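In 10 alternatives, covering the floor, the choice of probe set, the kind of probe set and the scaling, the median difference of the measured cell cycle genes ran from -0.14 to -0.03 and stayed negative. The median changed sign in 5 of 10 alternatives for the cyclins and kinases of G1 and S phase and for the retinoblastoma, p53 and checkpoint list, in 3 for the mitotic members, and in 1 each for the CDK inhibitors and other replication genes. It kept its sign for the E2F genes, the replication members, those matched by name and other mitotic genes. The count of members 2-fold or more higher was 1 and became 2, with Cdk1 beside E2f5, with the floor at the 20th percentile and without a floor. It was 0 with the mean of the measured probe sets and with the probe set of the smallest difference. The count of members 2-fold or more lower was 1 and became 0 with plain probe sets only, where Fen1 had no measured probe set. At 1.5-fold the counts were 8 higher and 5 lower, but 4 and 7 with centring on reference genes, 3 and 2 with the floor at the 60th percentile, 4 and 1 without a floor and 8 and 2 with the mean of the measured probe sets. They were 6 and 4 with only probe sets over the floor on each array. With centring on reference genes the mitotic members went from 3 higher and 1 lower to 0 and 2. Of the 52 measured members, 37 kept their direction in every alternative that measured them and 15 did not, and the cause of these changes was not tested. No paired analysis was possible because each diet has 1 array, and no replicate could be left out for the same reason. Signal over background limits the weak genes, since 31 of the 52 measured members had a mean intensity under 100.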
